A study of Mus musculus with 10 samples.

Results

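Cholesterol is built in the liver from acetyl-CoA through mevalonate, farnesyl pyrophosphate, squalene and lanosterol. The genes of these steps are switched on together by SREBP2, a transcription factor held in the endoplasmic reticulum by Scap and the Insig proteins while sterols are plentiful and released to the nucleus when they run low. The same factor raises uptake of lipoprotein cholesterol, so the messenger RNAs of this pathway are widely read as an index of sterol demand in liver.

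A list of 28 genes of sterol synthesis, sterol uptake and SREBP2 control was examined, each chosen by name. Each gene was read from the transcript cluster, the probe set of this array that covers a gene, with the highest mean among those annotated with that gene symbol alone. On that rule 25 of the 28 were measured, out of 22180 genes with such a cluster, and all 25 passed the filter on low signal that left 13308 genes for testing. Acat2, Idi1 and Soat2 had no cluster with a single symbol and were not analysed here. Npc1 and Scap had 2 such clusters each.

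The samples were 10 livers of 4-week-old male mice profiled on a mouse gene expression array. Livers of the shRNA 1 group (n = 3) and of the shRNA 2 group (n = 3) carried a doxycycline-inducible short hairpin RNA against Sod2, the mitochondrial superoxide dismutase, and the rtTA control livers (n = 4), from littermates, carried rtTA alone. All 3 groups carried the Rosa26-rtTA allele, which supplies the doxycycline-dependent activator from a widely active locus, and were exposed in utero through dams given chow with 625 mg/kg doxycycline, which per the labels lowered Sod2 in hairpin carriers from embryonic day 0 to 12.5. "Adapted" below means the mean of the 2 shRNA group means. The shRNA 2 cohort supplied 3 of the controls and the shRNA 1 cohort 1, but which is which was not given, so hairpin and cohort cannot be told apart. The labels do not say which livers shared a litter, and the p-values reflect nothing beyond the scatter among these 10 samples.

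The arrays were alike, with medians between 4.06 and 4.17 on the log2 scale and correlations over 22180 genes between 0.989 and 0.994. The tissue label was borne out by Alb, encoding albumin, at 13.77 in adapted and 13.75 in rtTA control livers, and all 10 hepatocyte markers passed the filter. Sod2 itself was at 10.43, 10.43 and 10.32 in shRNA 1 livers and 10.34, 10.47 and 10.24 in shRNA 2 livers, against 10.38, 10.49, 10.33 and 10.33 in rtTA control livers. The difference of -0.01 (limma, adjusted p = 0.98) was taken weeks after the knockdown ended, so it does not check the labels. All listed markers of macrophages (9), sinusoidal endothelium (8) and stellate cells (8) also passed the filter. Fewer of those listed were measured and passed it for cholangiocytes (3 of 7), T and NK cells (4 of 7) and B cells (3 of 5). For neutrophils it was 1 of 5 and for erythroid cells 1 of 7. Summed on the linear scale, 9 macrophage markers were at 2897 to 3667 in adapted and 2745 to 3311 in control livers, and the 10 hepatocyte markers at 49570 to 54580 in adapted and 49980 to 50690 in control livers. In whole tissue, fewer cells of a type and less RNA per cell cannot be told apart.

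RefSeq promoter windows of 300 bases on GRCm38.p6, from 250 bases before the transcription start to 50 after it, were at hand for 22 of the 28 genes. The letters of 4 motifs, none of which contains another, were searched on both strands: the core of the sterol regulatory element (CACNCCAC), the CCAAT box bound by NF-Y, a usual partner of SREBP2, the E-box CACGTG and the GC box GGGCGG. The CCAAT box occurred in 20 of 22 sterol genes, or 90.9%, against 41.1% of the 27025 genes in the whole table and 41.4% of those tested here. The GC box also occurred in 90.9%, against 38.2% of all genes and 64.9% of those tested. In these counts a gene with several windows counted if any of them held the letters. By window, the CCAAT box was in 71.4% of 28 sterol windows and 37.4% of all windows, and the GC box in 82.1% and 35.7%. The CACNCCAC core was in 3 of 22, Acat2, Hmgcs1 and Insig1, or 13.6% against 7.12% of all genes and 7.68% of those tested, and the E-box in 5 of 22, or 22.7% against 8.09% of all genes and 11.4% of those tested. A match of letters is a description and not a bound site.

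Windows of 5 genes are shown, with capitals for CACNCCAC and CCAAT on either strand (CCAAT reads ATTGG on the other). Hmgcs1 and Insig1 are shown because they hold the core among the measured genes, and Lss, Nsdhl and Pmvk because they were among the genes with the largest differences described below. Hmgcs1 lies at chr13:119690101-119690400, Insig1 at chr5:28071162-28071461, Lss at chr10:76531355-76531654, Nsdhl at chrX:72918271-72918570 and the upstream one of 2 Pmvk windows at chr3:89454291-89454590, each on the plus strand.
Hmgcs1: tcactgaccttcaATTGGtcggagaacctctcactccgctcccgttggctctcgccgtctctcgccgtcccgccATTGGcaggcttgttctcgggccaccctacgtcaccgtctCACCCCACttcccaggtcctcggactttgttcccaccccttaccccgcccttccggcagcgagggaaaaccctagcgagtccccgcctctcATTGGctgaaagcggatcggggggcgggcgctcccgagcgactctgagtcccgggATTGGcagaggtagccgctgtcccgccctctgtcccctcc
Insig1: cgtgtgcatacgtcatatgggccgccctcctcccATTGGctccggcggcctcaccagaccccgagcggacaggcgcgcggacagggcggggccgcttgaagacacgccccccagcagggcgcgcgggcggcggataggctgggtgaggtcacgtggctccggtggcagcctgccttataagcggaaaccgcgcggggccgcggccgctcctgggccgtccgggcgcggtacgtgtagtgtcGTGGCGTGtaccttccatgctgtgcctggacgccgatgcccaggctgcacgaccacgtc
Lss: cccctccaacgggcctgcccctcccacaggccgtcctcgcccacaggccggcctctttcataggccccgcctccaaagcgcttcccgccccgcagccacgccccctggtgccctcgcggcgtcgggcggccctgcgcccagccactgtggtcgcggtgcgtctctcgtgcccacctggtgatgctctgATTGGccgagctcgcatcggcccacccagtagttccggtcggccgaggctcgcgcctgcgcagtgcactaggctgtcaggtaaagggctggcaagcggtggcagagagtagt
Nsdhl: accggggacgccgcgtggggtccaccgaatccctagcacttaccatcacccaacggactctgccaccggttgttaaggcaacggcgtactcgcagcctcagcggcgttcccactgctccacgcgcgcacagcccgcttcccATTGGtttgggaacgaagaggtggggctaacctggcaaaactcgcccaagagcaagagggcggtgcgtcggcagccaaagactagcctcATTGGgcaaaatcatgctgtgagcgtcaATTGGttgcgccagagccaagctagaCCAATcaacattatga
Pmvk: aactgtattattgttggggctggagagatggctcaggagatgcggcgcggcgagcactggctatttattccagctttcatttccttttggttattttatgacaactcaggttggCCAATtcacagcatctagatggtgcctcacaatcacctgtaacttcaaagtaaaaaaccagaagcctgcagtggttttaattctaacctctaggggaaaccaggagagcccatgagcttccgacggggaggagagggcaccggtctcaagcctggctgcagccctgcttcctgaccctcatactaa
Hmgcs1 carried 4 CCAAT boxes and its core lay 136 bases before the start. Nsdhl carried 4 CCAAT boxes, and Lss and the Pmvk window shown 1 each. The other Pmvk window, not shown, held none of the 4 motifs. The Insig1 core lay on the other strand, 9 bases before the start.

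Most sterol genes stood slightly above controls in adapted livers, but no single gene passed the test. In adapted against control livers 24 of 25 fitted differences were above 0, with a median of 0.13 on the log2 scale, against 52.0% of all genes and a median of 0.01. At an adjusted p under 0.05 (limma, Benjamini-Hochberg over 13308 genes) 0 of 25 sterol genes were called, where the share over all genes was 0.00751%, a single gene. At an unadjusted p under 0.05, 7 of 25 were higher, Pmvk, Fdps, Nsdhl, Fdft1, Lss, Dhcr7 and Sc5d, and 0 were lower, where 4.86% of all genes were higher and 3.51% lower. Without rtTA control replicate 4 the median was 0.12 and 19 of 25 differences were above 0, where 49.6% of all genes were. Fdps, Nsdhl, Pmvk and Sc5d were then the 4 genes still higher at an unadjusted p under 0.05, against 3.72% of all genes. Other controls moved the median further: it was 0.08 without control replicate 1, with 19 of 25 above 0, and 0.20 without control replicate 3, with 24 of 25 above 0. The plot of differences gives each gene with and without control replicate 4.

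**Figure D1:**
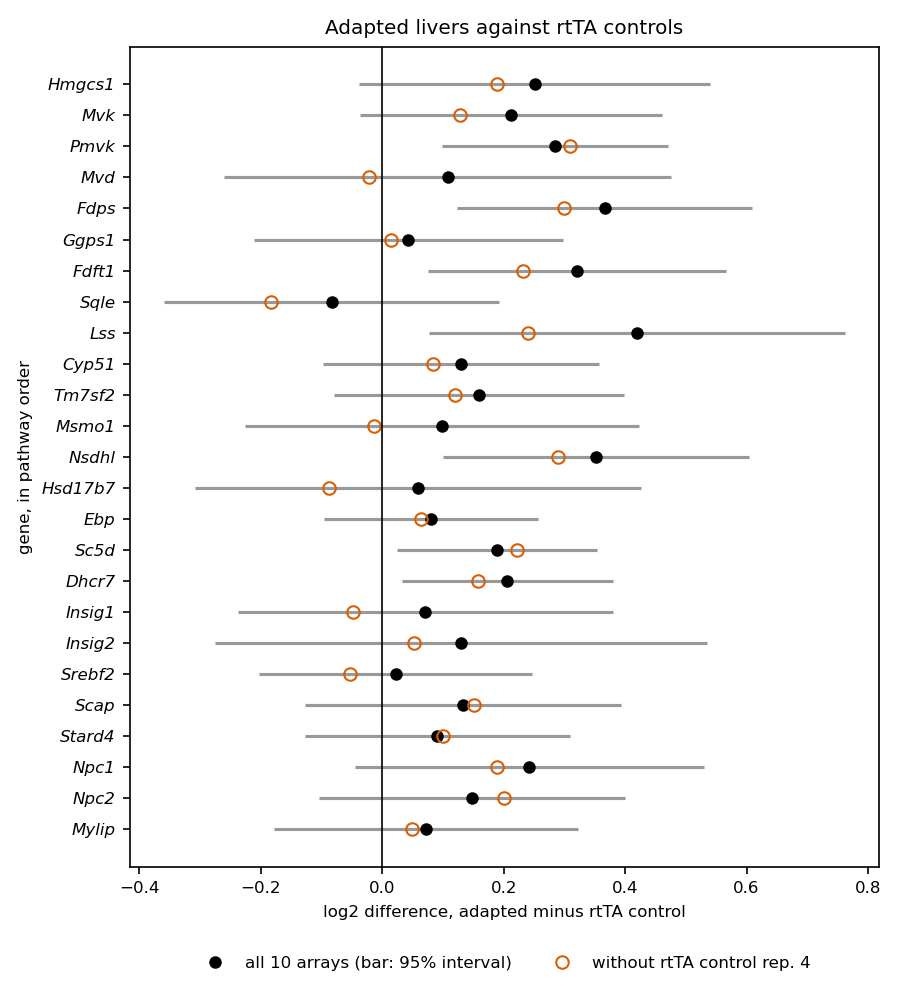
Log2 difference of adapted minus rtTA control livers for 25 sterol genes in pathway order, from the limma fit. Black points use all 10 arrays with 95% intervals, and open orange points leave out rtTA control replicate 4. Only Pmvk, Fdps, Fdft1, Lss, Nsdhl, Sc5d and Dhcr7 have intervals above 0, and Lss moves furthest left, to 0.24 from 0.42, when the array is left out.

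The early pathway, from acetyl-CoA to farnesyl and geranylgeranyl pyrophosphate, was covered by 6 genes. All 6 differences were above 0 in adapted against control livers, with a median of 0.23, and 0.16 without control replicate 4. The clearest was Pmvk, phosphomevalonate kinase, which adds the second phosphate of the mevalonate pathway. Pmvk was at 8.89, 8.69 and 8.98 in shRNA 1 livers and 8.63, 8.72 and 8.84 in shRNA 2 livers, against 8.38, 8.56, 8.51 and 8.58 in rtTA control livers. Every adapted liver was above every control, the only sterol gene of which that was so, where 1.04% of all genes had that order. The difference was 0.28 (SE 0.09), a 1.22-fold level with a 95% interval of 1.07 to 1.39. Limma gave adjusted p = 0.431, and the exact two-sided permutation test p = 0.0143. The smallest p that 6 against 4 arrays allow is 0.00476.

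Fdps, farnesyl pyrophosphate synthase, stands where the sterol and non-sterol branches part. It was at 10.62, 10.12 and 10.30 in shRNA 1 livers and 10.17, 10.16 and 10.03 in shRNA 2 livers, against 9.78, 9.94, 10.08 and 9.66 in control livers. shRNA 1 replicate 1 was the highest, and only shRNA 2 replicate 3 fell among the controls. The difference was 0.37 (SE 0.11; limma adjusted p = 0.432), or 1.29-fold, and 0.30 without control replicate 4. Mouse Fdps and Cyp51 have processed pseudogenes, whose signal these probe sets may not separate.

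Hmgcs1, the cytosolic HMG-CoA synthase and a classical SREBP2 target, was at 11.39, 11.58 and 11.37 in shRNA 1 livers and 11.42, 11.83 and 11.31 in shRNA 2 livers, against 10.97, 11.41, 11.50 and 11.04 in control livers. The groups overlapped: control replicates 2 and 3 lay among the adapted livers, and control replicates 1 and 4 lay below all of them. The difference was 0.25 (SE 0.13, limma adjusted p = 0.642), and 0.16 without control replicate 1. Mvk, mevalonate kinase, was at 6.54, 6.93 and 6.62 in shRNA 1 livers and 6.93, 6.82 and 7.05 in shRNA 2 livers, against 6.63, 6.55, 6.88 and 6.35 in control livers. Its difference of 0.21 (SE 0.11, limma adjusted p = 0.648) was 0.13 without control replicate 4. It was 0.33 in shRNA 2 livers against controls and 0.09 in shRNA 1 livers, and 0.25 and 0.01 without that replicate. Mvd, which makes isopentenyl pyrophosphate, and Ggps1, which makes geranylgeranyl pyrophosphate, had differences of 0.11 and 0.04, both well within their spread.

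**Figure D2:**
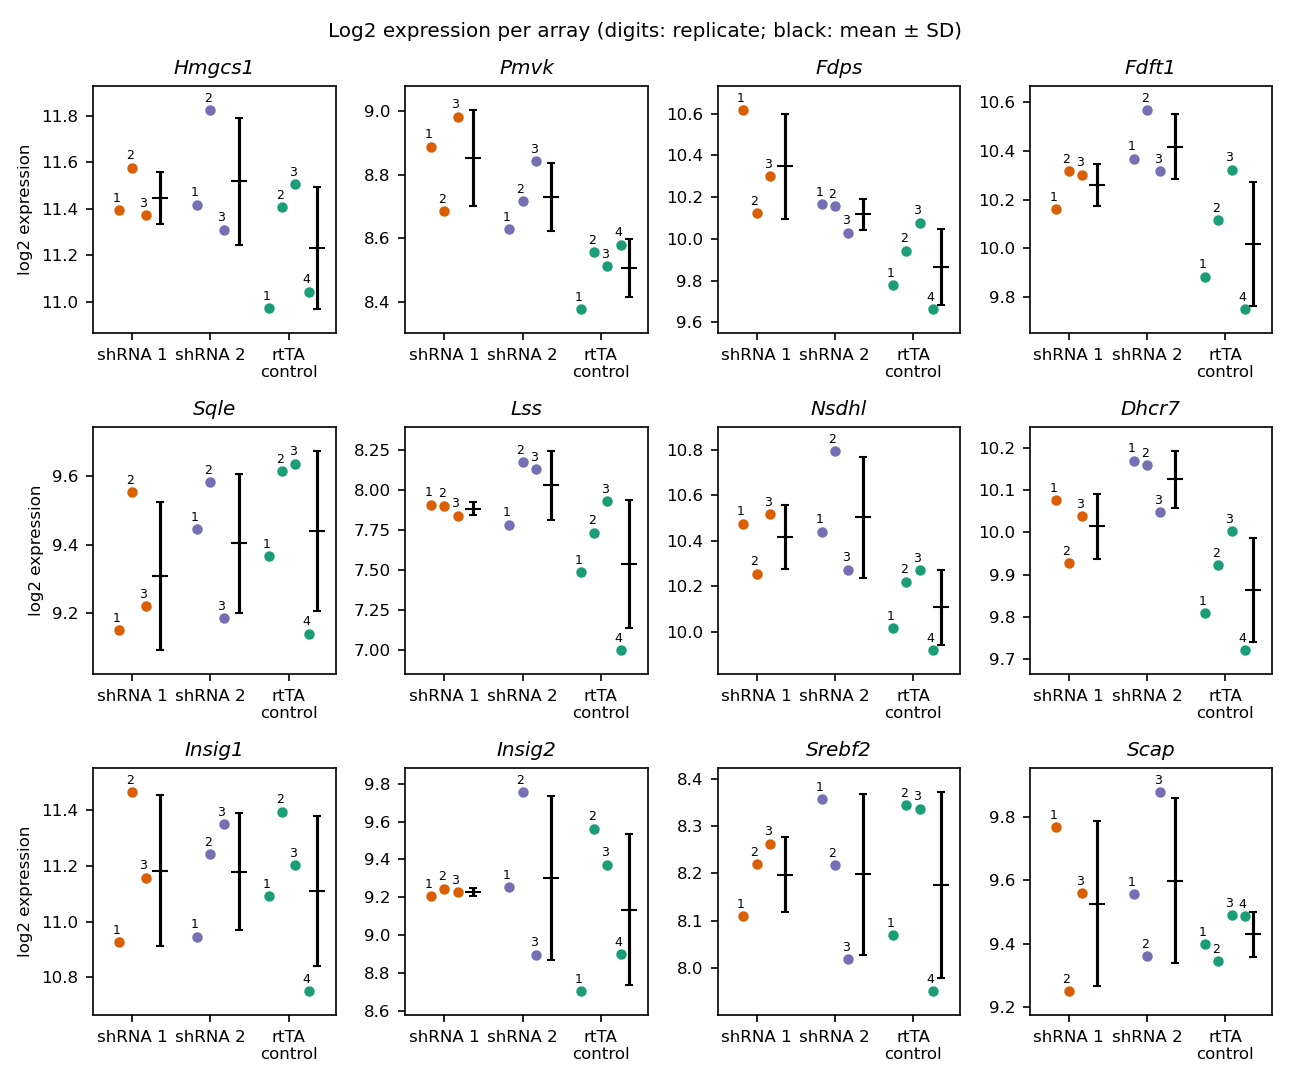
Log2 expression of 12 sterol genes in each array, with shRNA 1, shRNA 2 and rtTA control livers from left to right. Digits give the replicate and black bars the group mean ± SD (n = 3, 3 and 4). Pmvk alone has every adapted liver above every control, and in Hmgcs1, Fdft1, Fdps, Nsdhl and Dhcr7 the lowest 2 points are rtTA control replicates 1 and 4.

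The 11 enzymes from squalene to cholesterol had a median difference of 0.16, with 10 of 11 above 0, and 0.12 without control replicate 4. Fdft1, squalene synthase, commits farnesyl pyrophosphate to sterols. It was at 10.16, 10.32 and 10.30 in shRNA 1 livers and 10.37, 10.57 and 10.32 in shRNA 2 livers, against 9.88, 10.12, 10.32 and 9.75 in control livers. Control replicate 3 reached the level of the adapted livers and the other controls lay below all 6. The difference was 0.32 (SE 0.11; limma adjusted p = 0.491; exact permutation p = 0.0238), or 1.25-fold, and 0.23 without control replicate 4.

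Lss, lanosterol synthase, closes squalene epoxide into the sterol ring and had the largest difference of the list with all arrays, a rank it lost to Pmvk, Fdps and Nsdhl without control replicate 4. It was at 7.91, 7.90 and 7.84 in shRNA 1 livers and 7.78, 8.17 and 8.13 in shRNA 2 livers, against 7.48, 7.73, 7.93 and 6.997 in control livers. The SD was 0.04 in shRNA 1 livers and 0.40 in controls, where replicate 4 was far below the rest. The difference of 0.42 (SE 0.16, limma adjusted p = 0.513), or 1.34-fold with a 95% interval of 1.06 to 1.70, was 0.24 without control replicate 4, smaller by more than 1.5 times.

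Nsdhl, a decarboxylating dehydrogenase that removes methyl groups from the sterol ring, was at 10.48, 10.26 and 10.52 in shRNA 1 livers and 10.44, 10.79 and 10.27 in shRNA 2 livers, against 10.02, 10.22, 10.27 and 9.92 in control livers. Only shRNA 1 replicate 2 lay below the highest control. The difference was 0.35 (SE 0.12; limma adjusted p = 0.444; exact permutation p = 0.0143), or 1.28-fold, and 0.29 without control replicate 4. Dhcr7, which makes cholesterol from its immediate precursor, was at 10.08, 9.93 and 10.04 in shRNA 1 livers and 10.17, 10.16 and 10.05 in shRNA 2 livers, against 9.81, 9.92, 10.002 and 9.72 in control livers. All but shRNA 1 replicate 2 were above every control, and the difference was 0.21 (SE 0.08, limma adjusted p = 0.520). Sc5d, the lathosterol desaturase just before Dhcr7, was at 11.97, 11.94 and 11.90 in shRNA 1 livers and 11.73, 11.83 and 11.98 in shRNA 2 livers, against 11.66, 11.70, 11.66 and 11.80 in control livers. Its difference of 0.19 (SE 0.08, limma adjusted p = 0.522) was 0.22 without control replicate 4, which was the highest control here and not the lowest.

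Sqle, squalene epoxidase, an SREBP2 target and a control point of flux, was the one gene on the other side of 0. It was at 9.15, 9.55 and 9.22 in shRNA 1 livers and 9.44, 9.58 and 9.19 in shRNA 2 livers, against 9.37, 9.61, 9.64 and 9.14 in control livers. All adapted livers lay within the range of the controls, and the difference was -0.08 (SE 0.13; limma adjusted p = 0.904; 95% interval -0.36 to 0.19), or -0.18 without control replicate 4 and -0.02 without control replicate 3. Its fitted difference was below 0 while those of Fdft1 before it and Lss after it in the pathway were above 0, and this contrast between genes was not tested. The remaining 5 enzymes, Cyp51, Tm7sf2, Msmo1, Hsd17b7 and Ebp, had differences of 0.13, 0.16, 0.10, 0.06 and 0.08, none past an unadjusted p of 0.05. Msmo1, a sterol methyl oxidase, and Hsd17b7, a keto reductase, were at -0.01 and -0.09 without control replicate 4.

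In the 4 SREBP2 control genes no difference was detectable with these arrays. Srebf2, which encodes SREBP2 and is itself its target, was at 8.11, 8.22 and 8.26 in shRNA 1 livers and 8.36, 8.22 and 8.02 in shRNA 2 livers, against 8.07, 8.34, 8.34 and 7.95 in control livers. The difference was 0.02 with a 95% interval of -0.20 to 0.25 (limma adjusted p = 0.974), and 99.4% of its variation lay within groups. Insig1, which retains Scap in the endoplasmic reticulum and is among the most responsive SREBP2 targets, was at 10.93, 11.46 and 11.16 in shRNA 1 livers and 10.95, 11.24 and 11.35 in shRNA 2 livers, against 11.09, 11.39, 11.20 and 10.75 in control livers. Its difference was 0.07 (95% interval -0.24 to 0.38; limma adjusted p = 0.930), and -0.05 without control replicate 4.

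Insig2, the related retention protein whose liver transcript is not an SREBP2 target, was at 9.20, 9.25 and 9.23 in shRNA 1 livers and 9.25, 9.76 and 8.90 in shRNA 2 livers, against 8.70, 9.56, 9.37 and 8.90 in control livers. The shRNA 1 livers lay close together, with an SD of 0.02, while the shRNA 2 and control livers had SDs of 0.43 and 0.40. Scap, the sterol-sensing escort of SREBP2, was at 9.77, 9.25 and 9.56 in shRNA 1 livers and 9.56, 9.36 and 9.88 in shRNA 2 livers, against 9.40, 9.34, 9.49 and 9.49 in control livers. Here it was the controls that lay close together, with an SD of 0.07, and the adapted livers fell on both sides of them. The differences of Insig2 and Scap were 0.13 each (limma adjusted p = 0.895 and adjusted p = 0.816). Scap was at 0.05 as the mean of its 2 clusters, and with arrays left out in turn it ranged from 0.06 without shRNA 2 replicate 3 to 0.20 without shRNA 1 replicate 2. Insig2 ranged from -0.01 without control replicate 1 to 0.27 without control replicate 2. The median of the 4 control genes was 0.10, and 0.00 without control replicate 4.

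The 4 transport genes did not follow the order of arrays of the enzymes, nor a single order of their own. Control replicate 1 or 4 was the lowest control for 1 of 4, against 17 of 17 enzymes. The highest array was shRNA 2 replicate 3 for Npc1, Npc2 and Stard4, and shRNA 1 replicate 1 for Mylip. Npc1, which moves cholesterol out of the lysosome, was at 9.84, 9.31 and 9.68 in shRNA 1 livers and 9.64, 9.52 and 10.01 in shRNA 2 livers, against 9.68, 9.36, 9.40 and 9.26 in control livers. shRNA 2 replicate 3 was the highest and shRNA 1 replicate 2 lay among the lowest. The difference was 0.24 (SE 0.13, limma adjusted p = 0.650). Npc2, its soluble partner in the lysosome, Stard4, a cytosolic sterol carrier and SREBP2 target, and Mylip, the ubiquitin ligase that sends the LDL receptor to degradation, had differences of 0.15, 0.09 and 0.07. The median of the 4 was 0.12, and 0.14 without control replicate 4.

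In the control arrays the low values of the synthesis enzymes fell in the same 2 replicates for most enzymes. Control replicate 4 was the lowest control for 9 of the 17 enzymes and control replicate 1 for the other 8, leaving 0 for replicates 2 and 3. Replicate 4 was nevertheless the highest control for Pmvk and Sc5d, at 8.58 and 11.80. Over all genes the lowest control was replicate 4 for 4181, replicate 1 for 3597, replicate 3 for 2771 and replicate 2 for 2759 of 13308. The median deviation of the 17 enzymes from their means over all arrays was 0.01, 0.08 and 0.05 in shRNA 1 livers and 0.05, 0.19 and 0.02 in shRNA 2 livers, against -0.30, -0.02, 0.12 and -0.34 in control livers. The control livers thus covered a wider range than the adapted livers: replicate 3 was above 5 of the 6 adapted livers, replicate 2 was just below all of them, and replicates 1 and 4 were far below. The choice of these arrays was made after their values were seen and carries no test.

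**Figure D3:**
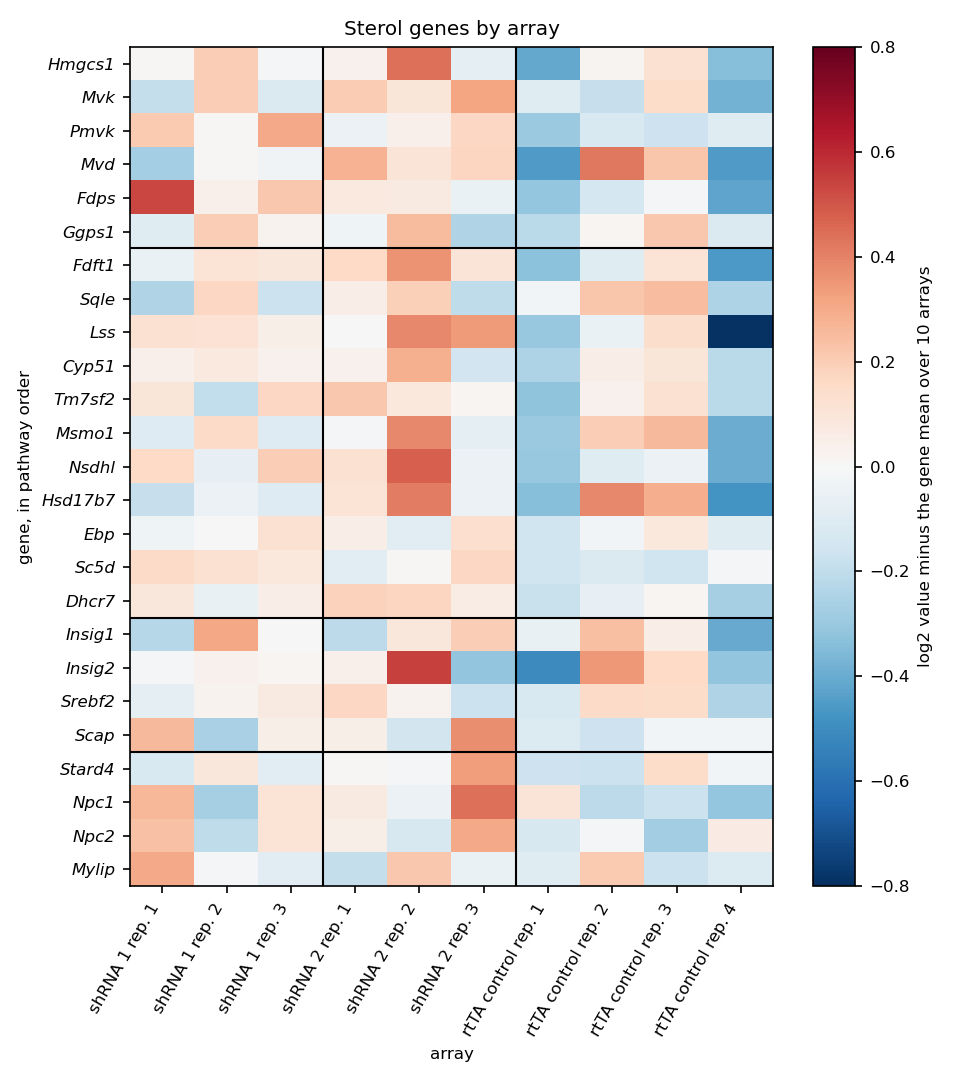
Log2 value minus the gene's mean over 10 arrays for 25 sterol genes in pathway order, with shRNA 1, shRNA 2 and rtTA control arrays from left to right. Red is above and blue below the gene mean, and horizontal lines part the mevalonate, sterol, SREBP2 control and transport genes. The columns of control replicates 1 and 4 are blue through most enzyme rows, and that of shRNA 2 replicate 2 is red in most of them.

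Counted by gene, control replicate 4 was below all 6 adapted livers in 18 of 25 sterol genes and control replicate 1 in 16, against 21.8% and 18.4% of all genes. Control replicates 2 and 3 were below all 6 in 8 and 3 of 25, or 32% and 12%, against 12.6% and 13.7% of all genes. Among the adapted livers shRNA 2 replicate 2 was the highest of the 10 arrays for 9 of 25 genes and for 6 of the 11 sterol enzymes, against 12.1% of all genes. shRNA 2 replicate 3 was the highest for 7 of 25 genes, against 11.5% of all genes, and 3 of the 7 were the transport genes Npc1, Npc2 and Stard4.

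**Figure D4:**
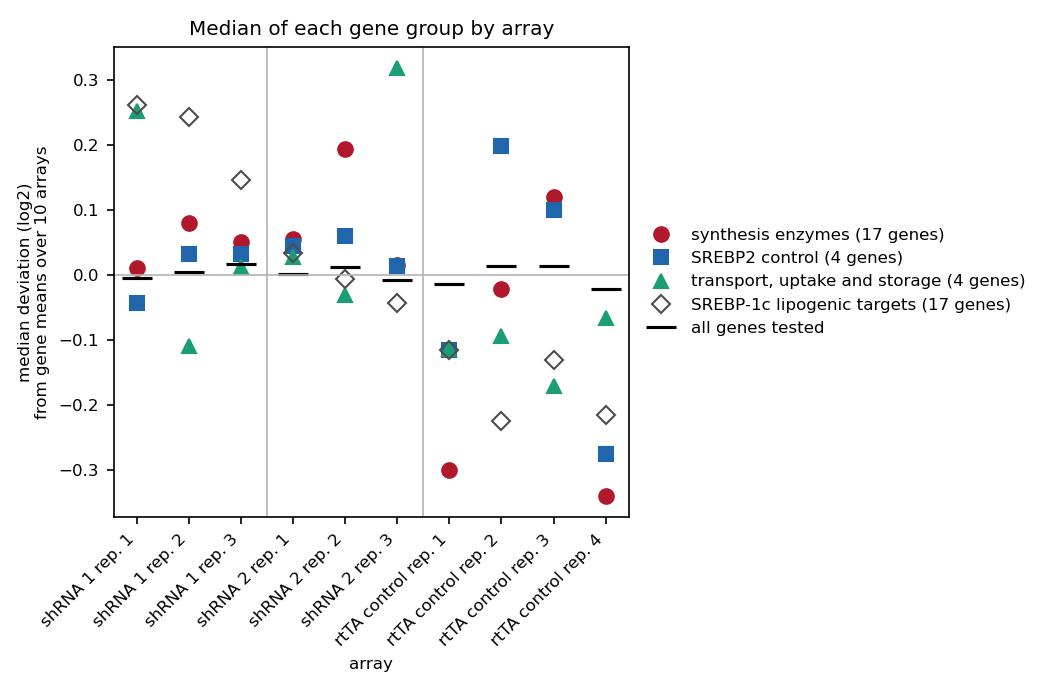
Median deviation (log2) from the gene means over 10 arrays, for 17 synthesis enzymes, 4 SREBP2 control genes, 4 transport genes, 17 SREBP-1c lipogenic targets and all genes tested, in each array from shRNA 1 through shRNA 2 to rtTA control. The enzymes lie at -0.30 and -0.34 in control replicates 1 and 4 and at -0.02 and 0.12 in control replicates 2 and 3, while the lipogenic targets lie between -0.12 and -0.22 in all 4 controls.

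Within groups the sterol genes spread more than most genes. The median within-group SD was 0.19 over the 25 genes and 0.16 over all genes tested, and 20 of 25 were above that all-gene value. The share of variation within groups was lowest for Pmvk (30.2%), Sc5d (33.4%), Dhcr7 (35.8%) and Fdps (37.1%), and highest for Srebf2 (99.4%), Insig1 (97.4%) and Ggps1 (97.1%).

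The hairpins were then set against the same 4 controls, so these values share the controls and are not independent of each other. In shRNA 1 livers the median difference was 0.11 with 22 of 25 above 0, against 52.4% of all genes. In shRNA 2 livers it was 0.17 with 24 of 25 above 0, against 51.2% of all genes. Limma called 0 of 25 in shRNA 1 livers, where 0% of all genes were called, and 0 of 25 in shRNA 2 livers, where 0.00751% were called. At an unadjusted p under 0.05, Fdps, Nsdhl, Pmvk and Sc5d were higher in shRNA 1 livers and 0 lower, against 4.57% of all genes higher and 3.32% lower. In shRNA 2 livers Dhcr7, Fdft1, Lss, Mvk, Nsdhl and Pmvk were higher and 0 lower, against 4.14% higher and 3.46% lower. Without control replicate 4, shRNA 1 livers had 19 of 25 differences above 0, against 50.4% of all genes, and Nsdhl no longer passed the unadjusted threshold. With the same array left out, shRNA 2 livers had 21 of 25 above 0, against 49.4% of all genes, and Mvk no longer passed it. All shRNA 1 livers lay above all controls for Fdps, Pmvk and Sc5d, an order found in 5.07% of all genes. All shRNA 2 livers did so for Dhcr7, Nsdhl and Pmvk, an order found in 3.88% of all genes.

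Fdps had the largest difference in shRNA 1 livers, at 0.48, against 0.25 in shRNA 2 livers, and Lss the largest in shRNA 2 livers, at 0.49, against 0.35 in shRNA 1 livers. Set against each other directly, shRNA 1 and shRNA 2 livers gave 0 of 25 calls in limma, where 0.015% of all genes were called, and 0 of 25 at an unadjusted p under 0.05, where 6.02% were. The interval of shRNA 1 minus shRNA 2 ran from -0.08 to 0.54 for Fdps and from -0.58 to 0.29 for Lss, so differences of that size remained possible. The median difference was -0.08 with 19 of 25 below 0 and 6 above, where 51.1% of all genes were above. It was -0.01 without shRNA 2 replicate 2.

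Genes around the list were read in the same fit of adapted against control livers, and limma called 0 of them in any comparison with controls. At an unadjusted p under 0.05, 1 gene of each list of sterol, lipid and clock genes was higher and 0 lower in adapted livers unless stated. Of other genes of sterol synthesis 7 of 11 were tested, with a median of 0.07. The ergosterol scaffold homologue Erg28 was at 0.28 (limma adjusted p = 0.521), the reductase Cyb5r3 at 0.21 (0.12 without control replicate 4) and the heme-binding Pgrmc1 at 0.07. Of 12 genes of the non-sterol branch the median was 0.02, and Rabggta, a subunit of the transferase that prenylates Rab proteins, was at 0.31 (limma adjusted p = 0.465) with 6 of 6 adapted livers above every control, though 0.20 without control replicate 4. Icmt, which methylates prenylated proteins, was at -0.14 and Dhdds, of dolichol synthesis, at 0.13 (0.04 without control replicate 4).

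Of 17 genes of SREBP processing and sterol-regulated degradation the median was 0.01. Mbtps2, the intramembrane protease that frees SREBPs, was at 0.30 (limma adjusted p = 0.513), the coat protein gene Sec24c at -0.14, and Srebf1, encoding SREBP-1, at 0.31, though 0.14 without control replicate 4. Lipoprotein uptake and lysosomal cholesterol had a median of 0.03 over 8 genes. Lipa, the lysosomal acid lipase, was at 0.17, and Lrp1, a remnant receptor, at -0.20. Vldlr, the VLDL receptor, was at 1.01 in shRNA 1 livers and 0.00 in shRNA 2 livers against controls (limma adjusted p = 0.616 for adapted, at 0.50, and 0.77 without control replicate 4). Its level was low and spread widely, at 4.77 ± 0.63 in adapted and 4.26 ± 0.59 in control livers (SD, n = 6 and 4), near the filter at 3.98. Only 2 of 6 adapted livers were above every control.

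Liver X receptor targets and efflux genes had a median of 0.02 over 11 genes, with 4 higher at an unadjusted p under 0.05. Abcg5 and Abcg8, the 2 subunits of the exporter that secretes cholesterol into bile, were at 0.25 and 0.34 in adapted livers (limma adjusted p = 0.513 and adjusted p = 0.557). Abcg5 averaged 9.07 ± 0.26 in adapted and 8.82 ± 0.03 in control livers, and Abcg8 8.87 ± 0.33 in adapted and 8.53 ± 0.15 in control livers (SD, n = 6 and 4). Both stood further above controls in shRNA 2 livers, at 0.43 and 0.51, than in shRNA 1 livers, at 0.06 and 0.16, and that difference was not tested. Pltp, the phospholipid transfer protein, was at 0.29. Sterol carriers, esters and oxysterols had a median of -0.04 over 15 genes, with the carrier Stard5 at 0.18 and above every control in 6 of 6, the oxysterol hydroxylase Cyp7b1 at -0.89 with an SE of 0.49, and Scp2 at -0.21.

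The lipogenic targets of SREBP-1c, the isoform that serves fatty acid synthesis, had the largest median of the lists read here, 0.29 over 17 genes, with 16 above 0 and 9 at an unadjusted p under 0.05. They were led by Acss2 (0.51), Acly (0.58) and Fasn (0.55), and 0 passed the adjusted threshold. Their order over arrays differed from that of the sterol enzymes. The lipogenic median deviation was 0.26, 0.24 and 0.15 in shRNA 1 livers and 0.03, -0.01 and -0.04 in shRNA 2 livers, against -0.12, -0.22, -0.13 and -0.22 in control livers. It was 0.38 in shRNA 1 and 0.17 in shRNA 2 livers as a median difference from controls, where the sterol enzymes had 0.13 and 0.22, and it moved little, to 0.28, without control replicate 4.

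Lists of states that move sterol genes in mouse liver were read beside them. Fasting response genes had a median of 0.04 over 12 genes, with 2 higher and 1 lower at an unadjusted p under 0.05. Taken by hairpin, their median difference from controls came to 0.15 (shRNA 1) and 0.12 (shRNA 2). Leaving out control replicate 4 gave 0.12 for adapted livers. The higher genes were Ppargc1a (0.59, limma adjusted p = 0.264) and G6pc (0.58, limma adjusted p = 0.431). The lower gene was Fgf21 (-0.94, limma adjusted p = 0.504). Clock genes, whose daily cycle liver sterol synthesis follows, had a median of 0.11 over 15 genes, with 11 above 0. Bhlhe40 was at 0.35 (limma adjusted p = 0.569), and 0.17 without control replicate 4. Per1 was at 0.38 and Per3 at 0.48 (SE 0.35), the latter with 0.06 in shRNA 1 and 0.89 in shRNA 2 livers. Medians of cell markers were 0.02 for hepatocytes, 0.11 for macrophages, 0.07 for sinusoidal endothelium, 0.05 for stellate cells, -0.02 for cholangiocytes, 0.14 for T and NK cells, -0.05 for B cells, -0.03 for neutrophils and 0.02 for erythroid cells, the neutrophil and erythroid values from 1 gene each. Among them limma called 0. The cholangiocyte marker Sox9 was lower at an unadjusted limma p of 0.00191 (difference -0.46, adjusted p = 0.303). Krt7 and Epcam of the same list were at 0.13 and -0.02. The hepatocyte factor Hnf4a was lower at an unadjusted limma p of 0.0459 (difference -0.18, adjusted p = 0.583). Tat, a hepatocyte aminotransferase, was higher at an unadjusted limma p of 0.0496 (difference 0.26, and 0.17 without control replicate 4). Also higher at an unadjusted limma p under 0.05 were the macrophage marker Vsig4 (0.24) and the sinusoidal endothelium marker Oit3 (0.23). The same held for the T cell marker Cd3g (0.39) and the stellate cell marker Lrat (0.29, and 0.15 without control replicate 4). Their lists were mixed. Differences were above 0 in 6 of 9 macrophage and 6 of 8 endothelial markers. For T and NK cells it was 3 of 4, and for stellate cells 4 of 8, against 52.0% of all genes. The B cell marker Cd79a (0.30) averaged 4.27 in adapted and 3.97 in control livers. It passed the filter at 3.98 only through the adapted livers, and was the 1 of 3 B cell markers above 0. The part of feeding, time of day or cell makeup in the sterol differences was not tested.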

How the data were processed

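Total RNA of 10 mouse livers was hybridised to a mouse gene array, per the labels' protocols. The deposited values are log2 expression per transcript cluster, made by the authors with Affymetrix Expression Console, per the submitters' processing notes. No version, background correction, normalization method or build is given in the sources used here. Precision is limited by having 10 arrays.

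Of 41345 clusters, 23521 had a single gene symbol in the platform annotation, 1814 several and 16010 none. The cluster with the highest mean stood for each of 22180 genes. Genes in the lowest 40% of mean level (log2 under 3.98) were left out, leaving 13308. A limma 3.58.1 model (R 4.3.3) with 3 groups was fitted to all of them, with Benjamini-Hochberg adjustment over all, and tested on simulated data. Exact permutation tests used all 210 ways to choose 6 of 10 arrays.

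Values of every array are given for the 10 sterol genes with the largest absolute moderated statistic and for Hmgcs1, Sqle, Insig1, Insig2, Srebf2 and Scap, and of every other list up to 3 genes by the same statistic. The members and lists were chosen with earlier results of these data known, so their counts and medians are descriptions. Alternatives covered normalization, the filter, the summary of clusters, the variance model, a replicate block and each array left out. Python 3.11.15 with matplotlib 3.10.9 drew the plots.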

Additional observations from a re-analysis of the deposited data

How the results depend on the processing

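No sterol gene was called under any of the alternatives run, in any of the 4 comparisons, and the lowest adjusted p of any of the 25 in adapted against control was 0.31. Directions were compared over 19 alternatives, which are not separate checks. The filter settings, the trend and robust prior and the fit of the compared arrays alone leave every difference unchanged, so they cannot turn a direction. The mean of a gene's clusters moved only Npc1 and Scap. The replicate block gave the same differences as leaving out control replicate 4. Of the 25 differences, 18 kept their direction under all 19 alternatives. The other 7 turned in at least 1. With arrays left out in turn they ranged from -0.0221 to 0.271 for Mvd, -0.0219 to 0.122 for Ggps1, -0.014 to 0.205 for Msmo1, -0.0879 to 0.198 for Hsd17b7, -0.0484 to 0.166 for Insig1, -0.0135 to 0.273 for Insig2 and -0.0527 to 0.0784 for Srebf2. Array weights gave -0.027 for Hsd17b7. With the replicate number as a block, Mvd was at -0.022, Msmo1 at -0.014, Hsd17b7 at -0.0879, Insig1 at -0.0484 and Srebf2 at -0.0527. Deviations of same-numbered arrays correlated between -0.25 and 0.27. These correlations were not set beside those of differently numbered arrays, so they cannot decide whether the numbers pair the samples. That block leaves control replicate 4 without a partner.

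The count over all genes moved more. In adapted against control it was 1, and 0 with the level filter raised to the 60th percentile or with the compared arrays alone as 2 groups, 6 with an intensity trend and robust prior, 2 at an adjusted p of 0.10, and 1 to 3 with arrays left out, 3 without control replicate 1 and 2 without control replicate 4. In shRNA 1 livers it was 0, and 1 with quantile normalization, 15 with the 60th percentile filter, 7 with the mean of a gene's clusters, 19 with array weights, 30 with trend and robust prior, 20 at 0.10, and 0 to 11 with arrays left out, 9 without control replicate 4 and 11 without shRNA 2 replicate 3. In shRNA 2 livers it was 1, and 0 with the stricter filter and 1 to 3 with arrays left out. In shRNA 1 against shRNA 2 livers it was 2, and 1 with quantile normalization or the stricter filter, 4 with the replicate block, 6 with array weights, 7 with trend and robust prior, 8 at 0.10, and 1 to 4 with arrays left out. The causes of these moves were not tested. Standard errors of the 25 differences in adapted against control ran from 0.08 to 0.19, which limits what these arrays can show for single genes.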
